A study of Mus musculus with 14 samples.

Results

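AML1-ETO is a fusion protein that joins the DNA-binding Runt domain of RUNX1 (AML1) to the corepressor RUNX1T1 (ETO). It is made by a chromosome translocation of acute myeloid leukaemia, binds at sites that RUNX1 would occupy and recruits histone deacetylases there, and it is known both to silence and to activate genes and to hold back myeloid differentiation. The genes described here moved the same way in both cell populations of the study. The populations were long-term haematopoietic stem cells (LT-HSC) and granulocyte-macrophage progenitors (GMP). LT-HSC renew themselves and feed all blood lineages, and GMP are committed to granulocytes and monocytes. A gene was taken as a member when its lowest AML1-ETO value exceeded its highest control value in LT-HSC and again in GMP, or the reverse held in both. Of 54532 genes in the table, 16116 were counted well enough to test, and 1143 of these (7.09%) were members, 564 higher (3.5%) and 579 lower (3.59%) in AML1-ETO.

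Cells came from bone marrow of C57BL/6 mice, either of genotype Runx1-Runx1t1 (called AML1-ETO here) or wild type (control). There were 3 AML1-ETO and 4 control libraries of LT-HSC, and likewise 3 and 4 of GMP. Poly(I:C), a mimic of viral RNA that raises interferon, is listed for all 14 libraries, controls included, at 5 mg/kg in 4 intraperitoneal doses, to switch on the fusion through Mx1-Cre, a recombinase under an interferon-inducible promoter that is active in many cell types of the marrow and elsewhere. The listed poly(I:C) dose was thus the same for both genotypes. Sort markers, sex, batches, the time after the last dose and whether libraries are from separate mice are not given, so the p-values below measure the spread between these libraries, which may be in part technical.

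Values are CPM, read counts scaled to a common library size by the trimmed mean of M-values. Fold changes come from edgeR's quasi-likelihood fit of the 4 groups. Their standard errors (SE), on the log2 scale, were derived as the absolute log2 fold change divided by the square root of its F statistic. The shared effect is the mean of the change in LT-HSC and the change in GMP. A gene is called when its Benjamini-Hochberg adjusted p over all 16116 genes is under 0.05, and "rose" and "fell" are used below for genes called in the shared effect. Membership was read from the same libraries, so the numbers of members that were called describe the list and support nothing by themselves.

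Library totals ran from 13210952 to 19403864 counts. Genes with at least 1 count numbered 12106 to 15329 in control LT-HSC and 16427 to 18106 in AML1-ETO LT-HSC, but 18747 to 19508 in control GMP and 13473 to 14887 in AML1-ETO GMP. Complexity thus moved in opposite directions with genotype in the 2 populations, and its part in the results was not tested. Of the transcripts chosen to mark the sorts, 2 are given here and do not stand for the rest. Hlf, a stem cell factor, was at 46.6 to 296 CPM in all LT-HSC libraries and at most 12.8 CPM in GMP. The granule enzyme Mpo was at 12486 CPM or more in every GMP library and at most 523 CPM in LT-HSC. Another stem cell marker, Ly6a, was higher in AML1-ETO in both populations. Some libraries stood apart. Summed lymphoid and B cell markers reached 80303 CPM in control LT-HSC replicate 2 and 13852 CPM or more in the other control LT-HSC. Control LT-HSC replicate 3 had the fewest genes counted, with the stem cell marker Procr at 0. The adult globin Hbb-bs was at 2127 CPM in AML1-ETO GMP replicate 1 and 547 CPM in replicate 3, against 23.4 CPM in replicate 2 and at most 0.162 CPM in control GMP. Xist, made by female cells, was at 672, 596 and 512 CPM in control LT-HSC replicate 1 and AML1-ETO GMP replicates 1 and 3, which also held the Y-linked Ddx3y at 60.3, 43.5 and 75.2 CPM. In bulk RNA, more cells of a type and more RNA per cell cannot be told apart, here and for every gene below.

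Without overlap in LT-HSC were 4382 genes (27.2%), and in GMP 4141 genes (25.7%). The higher members made up 22.7% of the 2480 genes that were higher without overlap in LT-HSC (15.4% of genes tested) and 37.6% of the 1500 in GMP (9.31%). The lower members made up 30.4% of 1902 in LT-HSC (11.8%) and 21.9% of 2641 in GMP (16.4%). Another 244 genes separated the genotypes in both populations but in opposite directions, 169 of them higher in AML1-ETO LT-HSC and lower in AML1-ETO GMP. In the shared effect 3026 genes were called (18.8%), 1577 higher (9.79%) and 1449 lower (8.99%), among them 518 higher and 528 lower members. The sign of the change differed between LT-HSC and GMP for 132 of the 1577 and 120 of the 1449. The counts of every list below stand against 9.79% risen and 8.99% fallen, with 3.5% higher and 3.59% lower members.

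Higher members changed more than lower ones. Their median log2 fold change was 1.47 in LT-HSC and 1.06 in GMP, while that of the lower members was -1.07 in LT-HSC and -0.54 in GMP. Over all genes tested the medians were -0.06 and -0.04. A change of at least 1 log2 unit in both populations was found for 264 higher and 88 lower members. Members were mostly protein-coding genes, 93.8% of the higher and 97.2% of the lower, against 79.8% of all genes tested. Just inside the rule stood Pcbd2, whose lowest control LT-HSC library had 7.89 CPM and whose highest AML1-ETO library had 7.88 CPM. Just outside stood Phf1, where control LT-HSC replicate 2, at 113.42 CPM, passed the lowest AML1-ETO library, at 113.36 CPM.

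**Figure D1:**
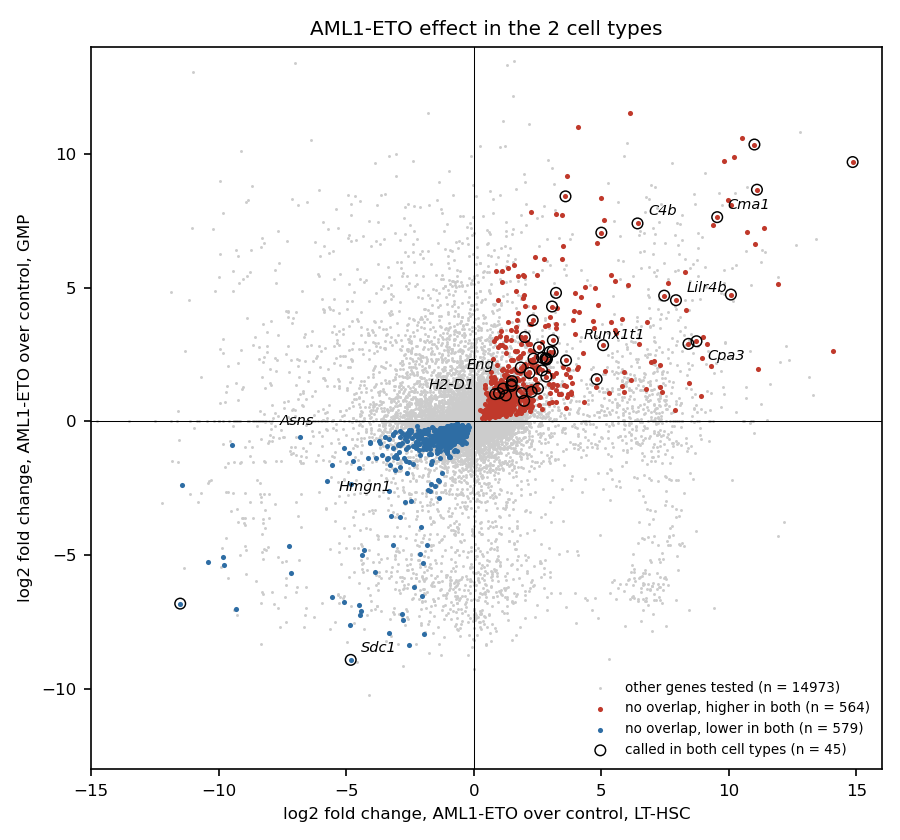
Log2 fold change of AML1-ETO over control in LT-HSC (horizontal axis) against that in GMP (vertical axis), 1 point per gene. The 564 higher members are red, the 579 lower members blue and the other genes grey. Rings mark the 45 genes called by the stricter test, on the larger of each gene's LT-HSC and GMP p-values, adjusted over all genes. Members fill the upper right and lower left, and most lower members lie close to 0 on the GMP axis; for genes at 0 counts in a group the plotted value depends on the fit's prior count.

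The fusion's own parts were read first, as the check of the labels. Runx1t1 (chr4:13743436-13893649), which blood cells hardly use and whose sequence is in the fusion, was at 3.97, 0, 18.2 and 11.2 CPM in control LT-HSC and 85.6, 164 and 125 CPM in AML1-ETO LT-HSC. GMP controls had 2.62, 2.32, 1.69 and 2.74 CPM and AML1-ETO GMP 26, 26.3 and 45.7 CPM. Every AML1-ETO library was above every control of its population, as the labels require. The shared log2 fold change was 3.85 (SE 0.63, adjusted p = 0.000899), nearly equal in LT-HSC (3.91) and GMP (3.80). Runx1 itself was no member: it was at 135 to 188 CPM in control LT-HSC and 287 to 440 CPM in AML1-ETO LT-HSC, but in GMP the AML1-ETO libraries at 219, 219 and 169 CPM overlapped controls at 171 to 212 CPM. Its log2 fold change was 1.12 in LT-HSC and 0.09 in GMP, a difference that was called (adjusted p = 0.0265).

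Among the largest rises of the members were genes of mast cells and basophils, the granulocytes that store histamine, heparin-like proteoglycan and proteases. Of 27 measured genes of that list, 18 rose and none fell, with a median shared log2 fold change of 3.63 against -0.06 over all genes tested, and 13 were higher members. Cma1, the mast cell chymase, was at 0, 0, 0 and 3.20 CPM in control LT-HSC and 642, 607 and 506 CPM in AML1-ETO LT-HSC. Its level in GMP was 0.214, 0.592, 0.260 and 0.524 CPM in controls and 107, 96.6 and 39.6 CPM in AML1-ETO. The gene was thus near the floor in all 8 control libraries and well counted in all 6 AML1-ETO libraries (shared log2 fold change 8.59, SE 0.72, adjusted p = 5.77e-06). Cpa3, the mast cell carboxypeptidase, was at 5.25, 17.9, 34.7 and 18.5 CPM in control LT-HSC and reached 6929, 9413 and 7926 CPM in AML1-ETO LT-HSC. In GMP it went from 101, 124, 99.4 and 86.5 CPM to 453, 1246 and 765 CPM. Control GMP already held more Cpa3 than control LT-HSC, and the rise was larger in LT-HSC (log2 fold change 8.73) than in GMP (3.0, adjusted p of the difference = 0.000616).

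Mast cell tryptases behaved alike, but from silence. Tpsb2 had counts in 1 of 8 control libraries, 3.94 CPM in LT-HSC replicate 4, and was at 69.8, 22.5 and 114 CPM in AML1-ETO LT-HSC and 28.1, 28.6 and 11.9 CPM in AML1-ETO GMP. Tpsg1 had no count in any control library and was at 10.1, 4.22 and 19.6 CPM in AML1-ETO LT-HSC and 3.49, 2.23 and 30.5 CPM in AML1-ETO GMP. Against a floor of 3 counts over the control group, Tpsg1 was at least 233-fold higher in LT-HSC and at least 281-fold higher in GMP. Reads of near-identical proteases and tryptases can be shared or lost in counting, so single members of the family are less certain than the family.

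Genes that basophils use as well were members too. Mcpt8, a protease of mouse basophils, was at 0.759, 0, 0 and 0 CPM in control LT-HSC and 51.0, 82.5 and 85.7 CPM in AML1-ETO LT-HSC. In GMP it rose from 78.7, 76.5, 67.2 and 43.5 CPM to 404, 591 and 495 CPM. Il1rl1, the receptor of interleukin-33, went from 5.95, 35.3, 31.1 and 20.1 CPM to 554, 938 and 834 CPM in LT-HSC, and from 12.9, 16.5, 9.48 and 12.6 CPM to 48.2, 65.1 and 166 CPM in GMP. No library of one genotype reached the other in either gene, and both rises were also called in each population taken alone (larger of the 2 p-values, adjusted p = 0.0176 for Mcpt8 and 0.0280 for Il1rl1). Hdc, which makes histamine, Ms4a2, the beta chain of the IgE receptor, and Cyp11a1, a steroid enzyme also found in mast cells, were at most 6.10, 1.90 and 0 CPM in control LT-HSC. In AML1-ETO LT-HSC, Hdc was at 92.6 to 164 CPM, Ms4a2 at 148 to 171 CPM and Cyp11a1 at 14.1 to 24.0 CPM. The same genes were already present in control GMP, at 183 to 248, 42.8 to 59.4 and 9.43 to 12.4 CPM, and there AML1-ETO libraries were at 347 to 649, 96.5 to 206 and 24.5 to 55.1 CPM. Slc18a2, the vesicle transporter of histamine and monoamines, and Srgn, the proteoglycan core of granules, completed the members together with Csf2rb2 and Cd200r3.

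Markers of mast cells and basophils summed to 2009 to 2562 CPM in control LT-HSC and 14081 to 16157 CPM in AML1-ETO LT-HSC, and to 2843 to 3069 CPM in control GMP and 4335 to 6876 CPM in AML1-ETO GMP. The groups did not overlap in either population. In GMP, summed eosinophil markers (1074 to 2635 against 3405 to 10883 CPM) and neutrophil granule markers (291 to 351 against 1290 to 4960 CPM) were also higher in AML1-ETO, and their part in these results was not tested. Leaving out any 1 of the 14 libraries left 17 to 19 of the 27 genes higher and none lower. A few mast cells or basophils in the sorted fractions and expression within stem and progenitor cells would both raise these sums, and they cannot be told apart here. Fcer1a, the alpha chain of the IgE receptor, was not a member because AML1-ETO GMP replicate 2, at 5.30 CPM, lay below controls at 9.37 to 15.9 CPM.

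Promoters of these genes often held the letters that RUNX proteins bind. The letters TGTGGT or TGCGGT, searched on both strands in windows of 300 bases (250 before to 50 after the start) from RefSeq, GRCm38.p6, were in 22.4% of all 32851 promoters and 21.5% of those of genes tested. They were in 19.5% of 568 promoters of higher members (423 genes matched) and 21.5% of 545 promoters of lower members (460 genes matched), so members as a whole did not hold them more often. Of 16 promoters of the 12 matched mast cell and basophil members, 9 held them (56.2%), a list singled out after its values were seen, and with a lower GC content (median 49.5%) than the promoters of genes tested (60%). The promoters of Cma1 (chr14:55944626-55944925, minus strand) and Cpa3 (chr3:20242132-20242431, minus strand) are shown because these are among the largest rises, with the RUNX letters in capitals as they read on the gene's strand. A match is a description of the letters and not a bound site.
Cma1: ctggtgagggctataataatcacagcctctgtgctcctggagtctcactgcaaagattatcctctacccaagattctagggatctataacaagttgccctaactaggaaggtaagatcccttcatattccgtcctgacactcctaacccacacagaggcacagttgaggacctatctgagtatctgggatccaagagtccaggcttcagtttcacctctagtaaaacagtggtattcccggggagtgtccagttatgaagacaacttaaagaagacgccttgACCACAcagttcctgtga
Cpa3: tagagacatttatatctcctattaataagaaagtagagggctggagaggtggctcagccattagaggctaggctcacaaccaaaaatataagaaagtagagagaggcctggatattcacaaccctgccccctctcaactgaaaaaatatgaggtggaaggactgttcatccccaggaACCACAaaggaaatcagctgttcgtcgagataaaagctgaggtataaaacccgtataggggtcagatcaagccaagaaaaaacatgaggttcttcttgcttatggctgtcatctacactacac

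**Figure D2:**
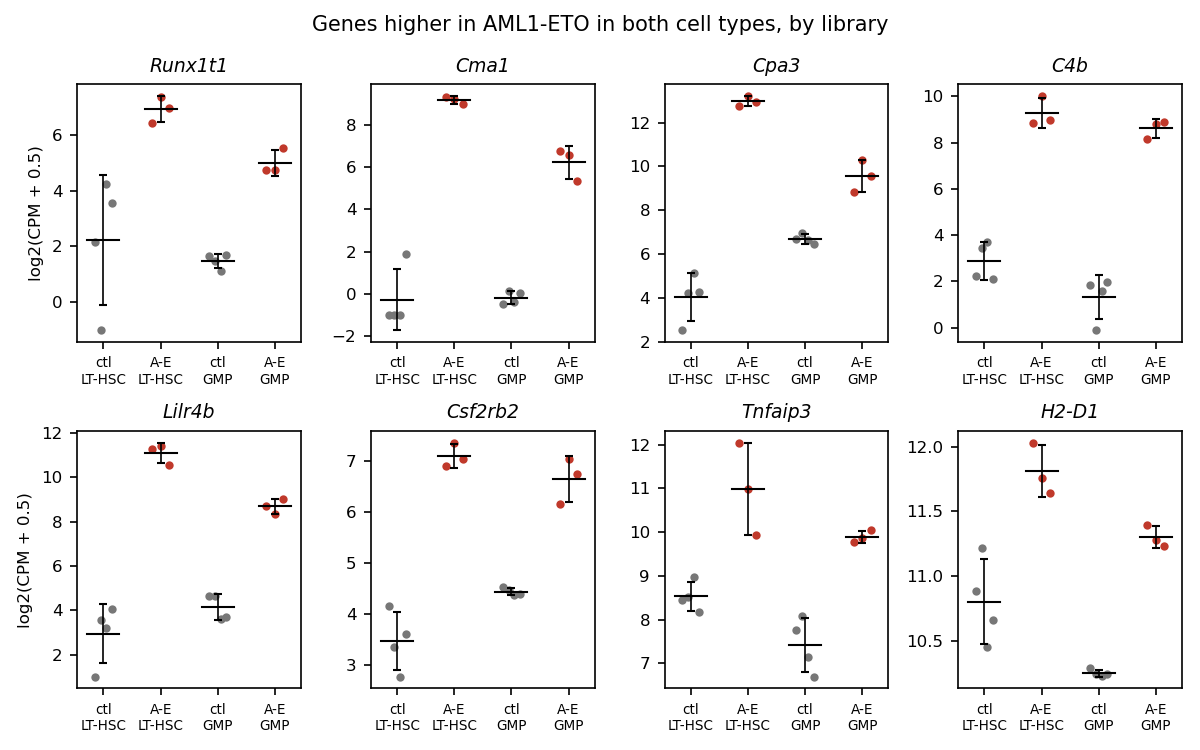
Expression of 8 higher members as log2(CPM + 0.5) in each library, grey for control and red for AML1-ETO (A-E), with the mean and SD of each group as bars. In every panel the red points of a population lie above all its grey points, by the widest margin for Cma1, C4b, Lilr4b and, in LT-HSC, Cpa3.

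Outside the mast cell list, the complement component C4b (chr17:34728380-34743882) was among the largest rises. It was at 4.26, 10.4, 12.5 and 3.81 CPM in control LT-HSC and 459, 1027 and 496 CPM in AML1-ETO LT-HSC. The GMP libraries were at 3.10, 0.431, 2.53 and 3.43 CPM in controls and 286, 443 and 478 CPM in AML1-ETO. C4b was thus low in all controls and of similar level in both AML1-ETO populations, with a shared log2 fold change of 6.91 (SE 0.43, adjusted p = 1.17e-06). Lilr4b and Lilrb4a, neighbouring inhibitory receptors of myeloid cells that are close copies of each other, rose in parallel. Lilr4b was at 1.52 to 16 CPM in control LT-HSC and 1522 to 2765 CPM in AML1-ETO LT-HSC, and at 11.9 to 24.6 CPM in control GMP and 329 to 526 CPM in AML1-ETO GMP. Lilrb4a had shared log2 fold change 6.08 (SE 0.57) and Lilr4b 6.23 (SE 0.41), and the reads may be split between them.

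Several higher members were silent in controls. Rprm, a p53-induced regulator of cell cycle arrest, had no count in any of the 8 control libraries and was at 15.3, 13.8 and 18.7 CPM in AML1-ETO LT-HSC and 8.55, 3.27 and 18.7 CPM in AML1-ETO GMP. That is at least 328-fold higher in LT-HSC and at least 237-fold higher in GMP. In all, 5 higher members had no count in any control library, 35 had none in control LT-HSC, and 9 had none in control GMP.

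Gcsam, a signalling adaptor of germinal centre B cells, had no count in control LT-HSC and 29.3 to 34.3 CPM in AML1-ETO LT-HSC, with 1.37 to 33.9 CPM in AML1-ETO GMP. Its control GMP values are not given here. The rise of Gcsam was smaller in GMP, by a called difference of -6.79 on the log2 scale. Lrrc32, which presents latent TGF-beta, was at 0 in 7 control libraries and 0.390 CPM in control GMP replicate 3, and at 7.45 to 18.1 and 0.785 to 25.8 CPM in AML1-ETO. Itga9, an integrin chain, went from 2.52 to 12.9 CPM in control LT-HSC to 174 to 209 CPM, and from at most 0.390 CPM in control GMP to 9.69 to 50.4 CPM. She, an SH2 adaptor of vessels, and Srgap1, a regulator of small GTPases, also passed from at most 3.68 and 3.13 CPM in control LT-HSC to 53.3 to 73.7 and 35.6 to 41.0 CPM in AML1-ETO LT-HSC. GMP values of She and Srgap1 are not given here. Ccl2, a chemokine for monocytes, was at 156 to 224 CPM in AML1-ETO LT-HSC, with counts in 1 control LT-HSC library (3.94 CPM). In GMP its margin was narrow, 0.455 to 0.756 CPM against 5.33, 1.51 and 61.3 CPM.

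Platelet and megakaryocyte genes formed another group of higher members, and here 1 library weighed heavily. Of 24 measured, 13 rose and none fell, and 7 were members. The list as a whole moved mainly in GMP, with a median log2 fold change of 0.19 in LT-HSC and 3.91 in GMP. Mpig6b, an inhibitory platelet receptor, was at 0 in control LT-HSC and 14.8, 8.52 and 27.9 CPM in AML1-ETO LT-HSC. Among GMP, controls were at 0.0535, 0.0538, 0 and 0.116 CPM and AML1-ETO at 11.6, 4.45 and 62.5 CPM. Treml1, a platelet granule receptor, was at 3.61 to 20.9 CPM in control LT-HSC and 53.2 to 201 CPM in AML1-ETO LT-HSC, and at most 0.873 CPM in control GMP against 18.3, 11.8 and 364 CPM. Alox12, the platelet lipoxygenase, and Slc35d3, needed for platelet dense granules, both outside this list, showed the same order in GMP, 9.14, 15.2 and 142 CPM for Alox12 and 15.5, 12.8 and 306 CPM for Slc35d3. AML1-ETO GMP replicate 3 was the highest of its group in all 4. Summed megakaryocyte markers were at 470 to 568 CPM in control GMP and 859 to 5308 CPM in AML1-ETO GMP, the highest in replicate 3, while in LT-HSC the genotypes overlapped (1494 to 2608 against 1932 to 3363 CPM). With the replicate number as a random-effect block 6 rose. Without AML1-ETO GMP replicate 3, 10 rose, 1 fell and the median shared log2 fold change went from 2.12 to 0.92. Slc35d3 and Treml1 each lost the call in 1 of 22 other settings. Among these settings, the separate fits of each population gave no test of the shared effect, so no call could be lost there.

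Immediate early genes, which switch on within minutes of a growth, stress or inflammatory signal, were higher in AML1-ETO. Of 42 measured, 23 rose and 1 fell, 14 were higher members, and the median shared log2 fold change was 1.27. Fos, a subunit of the AP-1 factor, was at 2716, 2975, 769 and 1411 CPM in control LT-HSC and 4718, 5306 and 3575 CPM in AML1-ETO LT-HSC. In GMP it was at 450, 540, 478 and 380 CPM in controls and 636, 1110 and 1340 CPM in AML1-ETO. Its partners Jun and Junb, named with Dusp1, Zfp36 and Btg1 after their values were seen, rose by 1.32 (SE 0.22) and 1.78 (SE 0.24) on the log2 scale. Klf6, a zinc finger factor, went from 248 to 859 CPM to 1032 to 3065 CPM in LT-HSC and from 246 to 352 CPM to 812 to 1779 CPM in GMP. Brakes on the same signals were among the members, the MAP kinase phosphatase Dusp1 (shared log2 fold change 1.67), the mRNA decay factor Zfp36 (1.48) and the antiproliferative Btg1 (1.48). Gadd45g, a stress-induced growth inhibitor, was at 4.01 to 28.3 CPM in control LT-HSC and 56.1 to 86.4 CPM in AML1-ETO, and at 4.60 to 5.73 CPM in control GMP and 25.3 to 106 CPM in AML1-ETO. Sgk1, a kinase induced by serum and steroids, rose by 2.57 (SE 0.22, adjusted p = 6.14e-06) and was called in each population. The AP-1 letters TGANTCA, with N any base, were counted in the same promoter windows, also after it was seen which genes moved. They were in 1 of 18 promoters of immediate early members (5.56%), 5.63% of those of higher members and 5.42% of those of genes tested.

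Feedback genes and products of NF-kB, the factor of inflammatory signalling, were also high, 22 of 36 measured higher and 2 lower, with 11 higher members and a median shared log2 fold change of 1.41. Tnfaip3, which ends NF-kB signalling by editing ubiquitin chains, was at 349, 368, 501 and 290 CPM in control LT-HSC and 4234, 2022 and 986 CPM in AML1-ETO LT-HSC. GMP controls had 216, 272, 141 and 103 CPM and AML1-ETO GMP 870, 928 and 1060 CPM. The genotypes did not overlap in either population, and the change was called in both populations (adjusted p = 0.0213). Cxcl2, a chemokine for neutrophils, was at 0 to 8.69 CPM in control LT-HSC and 20.2 to 153 CPM in AML1-ETO, and at 0.756 to 7.91 CPM in control GMP and 27.1 to 115 CPM in AML1-ETO. AML1-ETO LT-HSC replicate 1 was the highest and replicate 3 the lowest of its group in Tnfaip3, Cxcl2, Klf6 and Junb. Leaving out 1 library at a time, with 36 to 39 genes of the list then tested, gave 19 to 24 higher and 1 to 2 lower.

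Interferon targets were higher in AML1-ETO. Poly(I:C) is listed for both genotypes without the time after the last dose, and its part here was not tested. Of 65 measured, 28 rose and 1 fell, 10 were higher members, and the median shared log2 fold change was 0.86, 0.38 in LT-HSC and 1.33 in GMP. Irf1, a transcription factor of the interferon response, was at 189, 232, 109 and 185 CPM in control LT-HSC and 758, 349 and 253 CPM in AML1-ETO LT-HSC. Its level in GMP was 88.0, 85.7, 68.8 and 71.2 CPM in controls and 352, 387 and 244 CPM in AML1-ETO. The immunity-related GTPase Irgm1 was at 33.4 to 98.9 CPM in control LT-HSC and 106 to 170 CPM in AML1-ETO LT-HSC, and at 27.7 to 30.7 CPM in control GMP and 56.2 to 90.3 CPM in AML1-ETO GMP. Tgtp2, another such GTPase, moved more in GMP, from 6.62 to 11.2 CPM to 67.7 to 93.2 CPM, than in LT-HSC, from 23.9 to 120 CPM to 167 to 203 CPM, but the difference was not called (adjusted p = 0.0584). Control LT-HSC replicate 3 was the lowest of its group in all 3. Serpina3g, an interferon-inducible protease inhibitor kept in another list, went from 135 to 409 CPM to 620 to 1228 CPM in LT-HSC and from 26.7 to 35.8 CPM to 304 to 657 CPM in GMP, a rise that was larger in GMP (adjusted p of the difference = 0.0240). Leaving out 1 library at a time left 22 to 34 interferon genes higher and 1 to 4 lower, and the 10 members became 18 without control LT-HSC replicate 2 and 17 without AML1-ETO LT-HSC replicate 3.

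Class I antigen presentation, which shows cell peptides to T cells and is an interferon target, rose with them. Of 25 genes measured, 12 rose and none fell, and the 6 members were all class I chains, H2-K1, H2-D1, H2-Q4, H2-Q6, H2-Q7 and H2-T23. H2-D1 was at 1893, 2379, 1401 and 1619 CPM in control LT-HSC and 4182, 3460 and 3193 CPM in AML1-ETO LT-HSC. The GMP libraries were at 1250, 1215, 1199 and 1211 CPM in controls and 2697, 2488 and 2402 CPM in AML1-ETO. The change was close to a doubling in each population, 0.99 in LT-HSC and 1.05 in GMP on the log2 scale, and was called in both (adjusted p = 0.0213). H2-K1 rose by 0.93 (SE 0.13) and the non-classical H2-T23 by 1.21 (SE 0.22). Class I genes are close copies, so reads can be split between them.

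The interferon response element was looked for in the promoters after it was seen which genes moved. GAAA followed by 2 bases of any kind and a second GAAA, on either strand, was in 3.27% of promoters of genes tested, 4.05% of promoters of higher members and 2.39% of promoters of lower members. Of 13 promoters of the 9 matched interferon members, 5 held it (38.5%). Of 7 promoters of the 6 class I members, 1 held it (14.3%), and the H2-D1 promoter did not. The promoter of Irgm1 (chr11:48871371-48871670, minus strand, GRCm38.p6, RefSeq) is shown because it held overlapping matches just before the start, in capitals.
Irgm1: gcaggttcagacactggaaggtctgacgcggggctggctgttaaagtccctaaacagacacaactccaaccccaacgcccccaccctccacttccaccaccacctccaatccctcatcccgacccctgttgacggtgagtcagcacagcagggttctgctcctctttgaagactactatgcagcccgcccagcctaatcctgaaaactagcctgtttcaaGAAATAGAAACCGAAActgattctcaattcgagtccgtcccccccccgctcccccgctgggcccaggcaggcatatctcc

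Of 49 cytokine and growth factor receptors measured, 17 rose and 1 fell (9.79% and 8.99% over all genes tested). The 8 higher members (3.5% over all genes tested) were Csf2rb, Csf2rb2, Il3ra, Il1rl1, Crlf2, Il2rg, Tgfbr2 and Fas. Csf2rb2, the beta chain used by interleukin-3 in the mouse, was at 17.2, 9.68, 6.29 and 11.6 CPM in control LT-HSC and 118, 163 and 131 CPM in AML1-ETO LT-HSC. Among GMP, controls were at 22.4, 21.4, 20.1 and 20.5 CPM and AML1-ETO at 70.6, 130 and 107 CPM. Its neighbour and close copy Csf2rb, the beta chain common to interleukin-3, interleukin-5 and GM-CSF, was at 2.75 to 51.6 CPM and 293 to 354 CPM in LT-HSC, and at 165 to 180 CPM and 285 to 716 CPM in GMP. Both rose, by 2.95 (SE 0.21) and 2.44 (SE 0.41) on the log2 scale. Eng, a coreceptor of TGF-beta found on stem cells and endothelium, was among the most regular of all members. It was at 197 to 215 CPM in control LT-HSC and 507 to 643 CPM in AML1-ETO LT-HSC, and at 44.5 to 51.4 CPM in control GMP and 107 to 156 CPM in AML1-ETO GMP, with log2 fold changes of 1.5 and 1.51. Fcgr2b, the inhibitory IgG receptor, and the adhesion receptor Pecam1 rose as well, Pecam1 more in LT-HSC (2.19) than in GMP (0.82, adjusted p of the difference = 0.0129).

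Downstream of such receptors, 28 of 48 JAK, STAT, SOCS and RAS pathway genes rose and 4 fell, with 12 higher members. Pim1, a survival kinase induced by STAT5, was at 358, 426, 237 and 290 CPM in control LT-HSC and 2314, 2023 and 1286 CPM in AML1-ETO LT-HSC. In GMP it was at 212, 224, 157 and 152 CPM in controls and 476, 431 and 403 CPM in AML1-ETO. It rose in both populations (adjusted p = 0.0364) and more in LT-HSC (log2 fold change 2.51 against 1.23, adjusted p of the difference = 0.0313). Lcp2 and Lat, adaptors that carry signals of immune receptors in mast cells, platelets and T cells, rose by 1.11 (SE 0.13) and 2.76 (SE 0.34). Lat was at 37.0 to 94.9 CPM in control LT-HSC and 190 to 196 CPM in AML1-ETO LT-HSC, and at 2.84 to 4.52 CPM in control GMP and 28, 23 and 116 CPM in AML1-ETO GMP.

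Among transcription factors of blood, 26 of 73 rose and 4 fell, and 11 were higher members. Mxd1, which competes with MYC for MAX and is tied to differentiation, was at 35.8, 48.6, 52.9 and 50.9 CPM in control LT-HSC and 376, 206 and 132 CPM in AML1-ETO LT-HSC. GMP controls had 31.3, 35.3, 21.7 and 28.6 CPM and AML1-ETO GMP 190, 100 and 156 CPM. The log2 fold changes were 2.34 and 2.35. Id2, an inhibitor of E proteins, rose by 2.14 (SE 0.49) with an uneven spread, at 65.9, 9.10 and 15.7 CPM in AML1-ETO GMP against 3.67 to 6.58 CPM in controls. Jup, a catenin reported as raised by AML1-ETO, was at 3.54 to 27.6 CPM in control LT-HSC and 63.4 to 92.1 CPM in AML1-ETO, and at 5.89 to 6.52 CPM in control GMP and 24.1 to 36.2 CPM in AML1-ETO.

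Adhesion genes with the platelet integrin chain Itga2 and Itga9 gave 13 of 38 risen, none fallen and 5 members. Plek, a substrate of protein kinase C in platelets and leukocytes, rose by 2.44 (SE 0.31). Ctsd, a lysosomal protease (1.02, SE 0.13), was 1 of 3 lysosome members, with 7 of 41 genes of that list risen and 2 fallen. The shares over all genes tested were 9.79% risen and 8.99% fallen, with 3.5% higher members.

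Members of the DNA replication machinery were the largest group among the lower genes. Of 59 cell cycle and replication genes measured, 51 fell and none rose, with a median shared log2 fold change of -1.15, -2.21 in LT-HSC and -0.22 in GMP. Without overlap, 51 were lower and none higher in LT-HSC (11.8% and 15.4% over all genes tested). In GMP 25 were lower and 5 higher (16.4% and 9.31%). The change differed between the populations for 39 of the 59 (6.34%). The 20 lower members held all of Mcm2 to Mcm7, the helicase that opens origins, with Mcm10, and the loading factor Cdc6. Also there were the polymerase alpha chain Pola1 and the primase chain Prim1, the ligase Lig1, Rrm1 of nucleotide supply, the clamp loader Rfc4, Uhrf1 and Hells of chromatin copying, the checkpoint kinase Chek1, the activator E2f1, and Kif20a and Cenpf of mitosis.

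Mcm6 was at 244, 347, 439 and 494 CPM in control LT-HSC and 132, 140 and 193 CPM in AML1-ETO LT-HSC. Its level in GMP was 697, 697, 721 and 765 CPM in controls and 503, 510 and 498 CPM in AML1-ETO. The helicase was thus lower in every AML1-ETO library, with a deeper fall in LT-HSC (-1.30) than in GMP (-0.52) whose difference was not called (adjusted p = 0.131). Mcm5 was at 171, 261, 464 and 347 CPM in control LT-HSC and 47.8, 50.7 and 72.4 CPM in AML1-ETO LT-HSC. The GMP libraries were at 597, 577, 624 and 624 CPM in controls and 510, 448 and 427 CPM in AML1-ETO. Here the fall in LT-HSC (-2.45) was deeper than that in GMP (-0.39) by the test of the difference (adjusted p = 0.00567). Hells, a chromatin remodeller of dividing cells, was at 42.1, 54.1, 120 and 79.6 CPM in control LT-HSC and 7.76, 9.37 and 14 CPM in AML1-ETO LT-HSC. Among GMP, controls were at 184, 179, 195 and 179 CPM and AML1-ETO at 105, 121 and 88.1 CPM. Pola1 fell by 0.98 on the log2 scale (SE 0.22).

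All 20 members fell more in LT-HSC than in GMP, and for 11 of them the difference was called. All 20 were called in LT-HSC alone, where 3166 genes were called (19.6%, with 9.29% lower), and none in GMP alone, where 458 were called (2.84%, with 0.397% lower). In GMP the changes were smaller, and AML1-ETO libraries lay just below closely spaced controls. Leaving out 1 library at a time left 45 to 54 of the 59 genes lower and none higher.

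**Figure D3:**
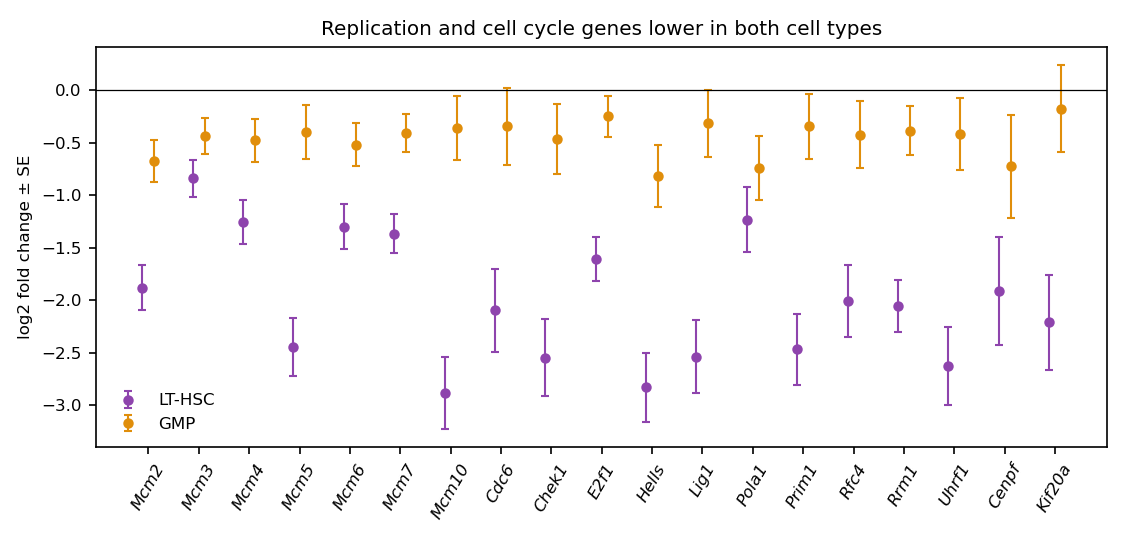
Log2 fold change of AML1-ETO over control, with its standard error as a bar, for 19 of the 20 lower members of the replication and cell cycle list in LT-HSC (purple) and GMP (orange). All values lie below 0, and each gene's value in LT-HSC is further from 0 than its value in GMP.

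E2F factors switch on replication genes at the start of S phase, and their letters, chosen after it was seen which genes moved, were counted in the promoters. TTTGGCGC or TTTCCCGC on either strand was in 1.56% of all promoters, 2.78% of those of genes tested, 6.42% of those of lower members (35 of 545) and 0.528% of those of higher members (3 of 568). Of 17 replication members matched, 7 held the letters, Cdc6, Hells, Mcm3, Mcm5, Mcm6, Mcm7 and Pola1. Promoters of Mcm6 (chr1:128359656-128359955, minus strand), Mcm3 (chr1:20820263-20820562, minus strand) and Hells (chr19:38930740-38931039, plus strand) from RefSeq, GRCm38.p6, are shown for the placing of these letters, in capitals as they read on the gene's strand.
Mcm6: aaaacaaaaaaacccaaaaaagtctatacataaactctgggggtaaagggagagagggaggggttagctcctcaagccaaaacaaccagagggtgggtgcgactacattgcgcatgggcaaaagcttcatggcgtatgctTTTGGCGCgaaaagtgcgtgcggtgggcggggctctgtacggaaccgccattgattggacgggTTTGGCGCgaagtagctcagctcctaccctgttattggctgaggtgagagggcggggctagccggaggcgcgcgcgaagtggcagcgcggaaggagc
Mcm3: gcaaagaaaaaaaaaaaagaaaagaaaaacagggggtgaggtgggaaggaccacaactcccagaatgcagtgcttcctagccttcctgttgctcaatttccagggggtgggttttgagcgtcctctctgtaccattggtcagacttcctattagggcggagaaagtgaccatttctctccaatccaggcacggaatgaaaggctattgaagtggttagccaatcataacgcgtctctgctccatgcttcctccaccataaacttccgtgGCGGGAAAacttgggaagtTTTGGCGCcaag
Hells: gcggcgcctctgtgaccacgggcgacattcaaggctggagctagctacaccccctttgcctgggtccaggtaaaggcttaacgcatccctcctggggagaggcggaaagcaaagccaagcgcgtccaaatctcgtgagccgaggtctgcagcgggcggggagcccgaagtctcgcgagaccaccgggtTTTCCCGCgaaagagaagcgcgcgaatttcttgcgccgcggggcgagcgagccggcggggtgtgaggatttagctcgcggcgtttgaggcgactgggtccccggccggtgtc

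Of 14 D cyclins, CDK4/6 and CDK inhibitors measured, 4 rose and 5 fell, with a median shared log2 fold change of 0.01. There were 1 higher and 3 lower members. Over all genes tested 9.79% rose and 8.99% fell, with 3.5% higher and 3.59% lower members. Ccnd2, the D cyclin of blood cells, was at 240, 191, 151 and 248 CPM in control LT-HSC and 70.5, 41.5 and 107 CPM in AML1-ETO LT-HSC. In GMP it was at 139, 132, 121 and 146 CPM in controls and 95.1, 44.0 and 103 CPM in AML1-ETO. Cdkn1b (p27), an inhibitor of cyclin-dependent kinases, was the higher member and rose by 0.80 (SE 0.14), while the pocket protein Rbl1 fell by 0.69 (SE 0.17). Ccng2, a cyclin linked to arrest and named after its values were seen, went from 36.4 to 53.7 CPM to 161 to 256 CPM in LT-HSC and from 33.2 to 56.8 CPM to 126 to 186 CPM in GMP.

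Survival genes of the BCL2 family moved apart. Bcl2 was at 75.6, 75.2, 234 and 120 CPM in control LT-HSC and 14.7, 5.84 and 21.5 CPM in AML1-ETO LT-HSC. GMP controls had 98.3, 117, 96.7 and 104 CPM and AML1-ETO GMP 67.0, 23.9 and 67.3 CPM. Its relative Bcl2l1 (BCL-XL) went the other way, from 25.5 to 32.2 CPM to 47.4 to 88.4 CPM in LT-HSC and from 16.2 to 17.3 CPM to 31.8 to 62.7 CPM in GMP. Both proteins block the mitochondrial path of cell death. The shared log2 fold changes were -2.07 (SE 0.35) for Bcl2 and 1.32 (SE 0.18) for Bcl2l1. Of 16 family genes measured, 5 rose and 3 fell, against 9.79% and 8.99% over all genes tested.

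Of 36 DNA methylation and Polycomb genes measured, 5 rose and 7 fell, and 1 was a higher and 3 were lower members. Over all genes tested 9.79% rose and 8.99% fell, with 3.5% higher and 3.59% lower members. Dnmt3b, a de novo DNA methyltransferase, fell by 0.95 in both populations, from 44.3 to 89.0 CPM to 28.2 to 42.1 CPM in LT-HSC and from 60.2 to 63.1 CPM to 21.3 to 45.5 CPM in GMP. Cbx6 of Polycomb fell by 1.13 (SE 0.19), and Ezh1, a Polycomb methyltransferase of resting cells, rose by 0.87 (SE 0.18). Hmgn1, a nucleosome-binding protein that loosens chromatin, was among the larger falls. It was at 132, 190, 201 and 131 CPM in control LT-HSC and 6.99, 2.23 and 12.3 CPM in AML1-ETO LT-HSC. Its level in GMP was 112, 115, 146 and 93.9 CPM in controls and 42.4, 4.38 and 57.4 CPM in AML1-ETO, so replicate 2 stood lowest in both populations. Its fall was 3.12 on the log2 scale (SE 0.48, adjusted p = 0.000571).

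**Figure D4:**
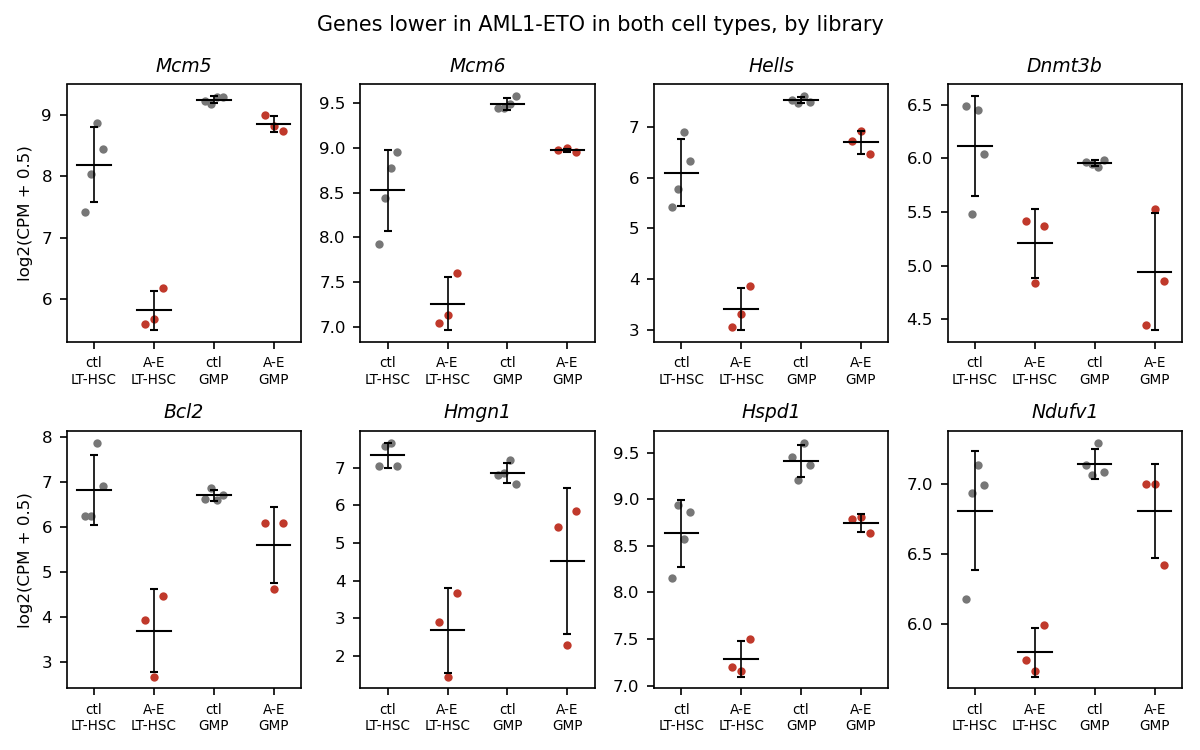
Expression of 8 lower members as log2(CPM + 0.5) in each library, grey for control and red for AML1-ETO (A-E), with the mean and SD of each group as bars. Red points lie below all grey points of their population in every panel, closely so for Ndufv1 and Mcm5 in GMP and widely for Hells, Bcl2 and Hmgn1 in LT-HSC.

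Other falls that ranked high were of mixed function. Sh3pxd2b, a scaffold of invasive cell protrusions, was at 15.3 to 57.8 CPM in control LT-HSC and 2.07 to 3.67 CPM in AML1-ETO, and at 28.1 to 32.5 CPM in control GMP and 3.81, 0 and 11.3 CPM in AML1-ETO. Cnn3, an actin-binding calponin, went from 30.8 to 41.6 CPM to 3.40 to 10.9 CPM in GMP and fell by 2.01 (SE 0.32) in the shared effect. Tceal8, Rnf157, Chchd10, Lrrc20, Lrfn4 and Dock1, a Rac activator, fell by 1.57 to 2.46 on the log2 scale. In Tceal8 and Dock1, AML1-ETO GMP replicate 2 was far below its group, 1.51 CPM against 16.6 and 13.4 CPM for Tceal8 and 0.851 CPM against 22.8 and 17.2 CPM for Dock1. Egln3, an oxygen-sensing prolyl hydroxylase, was at 11.9 to 50.3 CPM in control LT-HSC and 1.47 to 4.24 CPM in AML1-ETO, and at 71.0 to 82.0 CPM in control GMP and 27.0 to 31.2 CPM in AML1-ETO. Ptk7, a Wnt receptor of stem cells, Slc29a2, a nucleoside transporter, and B3gnt5, which starts lacto-series glycolipids, also fell. The calls of B3gnt5, Slc29a2 and Dock1 were lost in 12, 13 and 9 of 22 other settings.

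Over all genes tested 8.99% fell and 9.79% rose, with 3.59% lower members. Of 35 genes of chaperones and the unfolded protein response 10 fell and 2 rose, with 4 lower members. Without AML1-ETO LT-HSC replicate 2 only 6 fell. Hspd1, the mitochondrial chaperonin, was at 285, 491, 380 and 467 CPM in control LT-HSC and 146, 142 and 181 CPM in AML1-ETO LT-HSC. The GMP libraries were at 702, 591, 780 and 662 CPM in controls and 442, 450 and 398 CPM in AML1-ETO. Hsp90ab1, a cytosolic chaperone, fell by 0.36 (SE 0.09) and its call was lost in 2 of 22 other settings. Asns, which makes asparagine and is induced by amino acid stress, was at 21 to 68 CPM in control LT-HSC and 0, 0.461 and 0.856 CPM in AML1-ETO, but at 14.3 to 22.1 CPM in control GMP and 11.1 to 12.2 CPM in AML1-ETO GMP. The 2 falls differed (adjusted p = 0.00213).

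Of 57 respiratory chain genes 17 fell and none rose, with a median of -0.35 and 4 lower members, among them Ndufv1 of complex I (-0.69, SE 0.15) and Atp5g1 of the ATP synthase (-0.92, SE 0.22). Without 1 library the number that fell ran from 8, when AML1-ETO LT-HSC replicate 1 or 2 was left out, to 29 when control LT-HSC replicate 1 was. Cox7c lost its call in 9 of 22 other settings. Of 69 cytosolic ribosomal proteins 6 fell and none rose, close to the 8.99% lower over all genes tested, and the 4 lower members included Rpl4 and Rps20, of which Rpl4 lost its call in 6 and Rps20 in 11 of 22 settings. The number of ribosomal genes fallen ran from 2 to 15 when libraries were left out, with 15 without control LT-HSC replicate 1 and 2 without AML1-ETO LT-HSC replicate 2 or 3, control GMP replicate 1 or 3, or AML1-ETO GMP replicate 1. The 4 members became 8 when control LT-HSC replicate 1 was left out and 11 when AML1-ETO LT-HSC replicate 1 was. In glycolysis 10 of 32 fell and 2 rose (8.99% and 9.79% over all genes tested), but 5 fell when AML1-ETO LT-HSC replicate 2 was left out. The number that fell was 6 when AML1-ETO LT-HSC replicate 1, control GMP replicate 1 or AML1-ETO GMP replicate 3 was left out. Pgk1, an ATP-making enzyme, was at 152 to 257 CPM and 110 to 131 CPM in LT-HSC and at 423 to 514 CPM and 323 to 381 CPM in GMP. The 2 that rose were transporters and members, Slc2a3 for glucose (2.11, SE 0.28) and Slc16a3 for lactate (1.30, SE 0.23).

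The study's title concerns fatty acid metabolism, and its members are given here against 3.5% higher and 3.59% lower over all genes tested. Of 28 genes of fatty acid synthesis, desaturation and elongation, 6 fell and 1 rose in the shared effect, with a median of -0.32, and Fads1 was the 1 member, a lower one. Fads1, the delta-5 desaturase of polyunsaturated fatty acids, was at 138, 88.6, 102 and 132 CPM in control LT-HSC and 31.1, 56.9 and 45.7 CPM in AML1-ETO LT-HSC. Among GMP, controls were at 38.8, 38.1, 42.9 and 43.7 CPM and AML1-ETO at 35.0, 34.6 and 16.1 CPM, a narrow margin. Fasn, the fatty acid synthase, was not a member: AML1-ETO LT-HSC at 185 to 224 CPM lay within the controls at 125 to 328 CPM, and the shared change was -0.49 (SE 0.20, adjusted p = 0.109).

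Of 47 genes of fatty acid uptake, binding, activation and oxidation, 5 rose and 4 fell, with a median of -0.04, and 2 were higher members and 1 a lower one. Without AML1-ETO LT-HSC replicate 2 or 3, or AML1-ETO GMP replicate 3, the number that rose was 3. Ppard, a nuclear receptor that drives fatty acid oxidation, was at 15.2, 17.7, 23.4 and 17.5 CPM in control LT-HSC and 44.3, 57.8 and 44.1 CPM in AML1-ETO LT-HSC. In GMP it was at 13.9, 14.2, 17.1 and 15.2 CPM in controls and 18.7, 25.1 and 27.4 CPM in AML1-ETO. It rose by 1.03 (SE 0.18, adjusted p = 0.00126). Slc27a3, an acyl-CoA synthetase of the fatty acid transport family, was at 0 to 3.27 CPM in control LT-HSC and 22.3 to 30.3 CPM in AML1-ETO, and at 4.48 to 5.99 CPM in control GMP and 10.6 to 19.5 CPM in AML1-ETO. Acot1, which cleaves acyl-CoA in the cytosol, was at 6.32 to 21 CPM and 1.90 to 2.23 CPM in LT-HSC, and at 10.4 to 19.7 CPM and 3.09 to 8.21 CPM in GMP. Members of the list thus moved both ways. The triglyceride and lipid droplet list, with 23 genes measured, held no member.

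Cholesterol genes fell more often, 11 of 34 against 4 that rose (8.99% and 9.79% over all genes tested). There were 4 lower members and 1 higher (3.59% and 3.5% over all genes tested). With DESeq2's size factors the lower members came to 1. Sqle, an early oxygen-using enzyme of sterol synthesis, was at 38.9, 33.0, 30.2 and 44.1 CPM in control LT-HSC and 2.99, 2.53 and 2.75 CPM in AML1-ETO LT-HSC. GMP controls had 39.6, 32.5, 49.4 and 47.3 CPM and AML1-ETO GMP 32.4, 25.6 and 17.3 CPM. The fall was deeper in LT-HSC (-3.72) than in GMP (-0.75, adjusted p of the difference = 0.00102). Soat1, which esterifies cholesterol, fell by 1.36 (SE 0.26), and Mylip, which removes the LDL receptor, rose by 1.26 (SE 0.24). Among 32 eicosanoid genes 9 rose and 2 fell, and the higher members were Alox12, the prostaglandin D synthase Hpgds of mast cells and megakaryocytes, and the prostaglandin E receptor Ptger3. Hpgds was at 2.04, 0, 0 and 0 CPM in control LT-HSC and 3.23, 12 and 16.9 CPM in AML1-ETO, and at 0.291 to 0.910 CPM in control GMP and 35.3, 5.10 and 19.3 CPM in AML1-ETO.

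Lists that name the 2 sorted populations were read against the shares of members over all genes tested, 3.5% higher and 3.59% lower. Of 44 stem cell genes 12 rose and 6 fell, and the members were the higher Fos and Ly6a and the lower Krt18, a keratin of simple epithelia that fell by 1.89 (SE 0.43). This list moved in opposite directions, with a median log2 fold change of -0.51 in LT-HSC and 1.03 in GMP. Without overlap, 7 were higher and 10 lower in LT-HSC (15.4% and 11.8% over all genes tested). In GMP 11 were higher and 3 lower (9.31% and 16.4%). The difference was called for 13 of the 44 (6.34%). Of 30 genes of GMP and primary granules 12 rose and 3 fell, with Srgn, Csf2rb and Fcgr2b as higher members. Pbx2, a partner of HOX proteins, rose by 0.55 (SE 0.10) and was the higher member of 21 HOX, MEIS and PBX genes. Erythroid (29 genes), neutrophil granule (18) and eosinophil (9) lists held none. Summed markers of all 3 were nevertheless higher in some or all AML1-ETO GMP libraries. Eosinophil sums were at 1074 to 2635 CPM in control GMP and 3405 to 10883 CPM in AML1-ETO GMP, and neutrophil granule sums at 291 to 351 and 1290 to 4960 CPM, both without overlap. In LT-HSC the same sums were at 4.72 to 99.8 and 11.8 to 15.8 CPM for eosinophils and 169 to 255 and 51 to 120 CPM for neutrophil granules. Summed erythroid markers reached 5730 and 2700 CPM in AML1-ETO GMP replicates 1 and 3 against 368 to 414 CPM in control GMP. In LT-HSC the erythroid sums went the other way, 1678 to 4314 CPM in controls and 652 to 929 CPM in AML1-ETO. Summed lymphoid markers were at 13852 to 80303 CPM in control LT-HSC and 665 to 1330 CPM in AML1-ETO LT-HSC, and at 484 to 534 and 611 to 827 CPM in GMP. Their 1 lower member was Sdc1, a heparan sulfate proteoglycan of plasma cells.

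**Figure D5:**
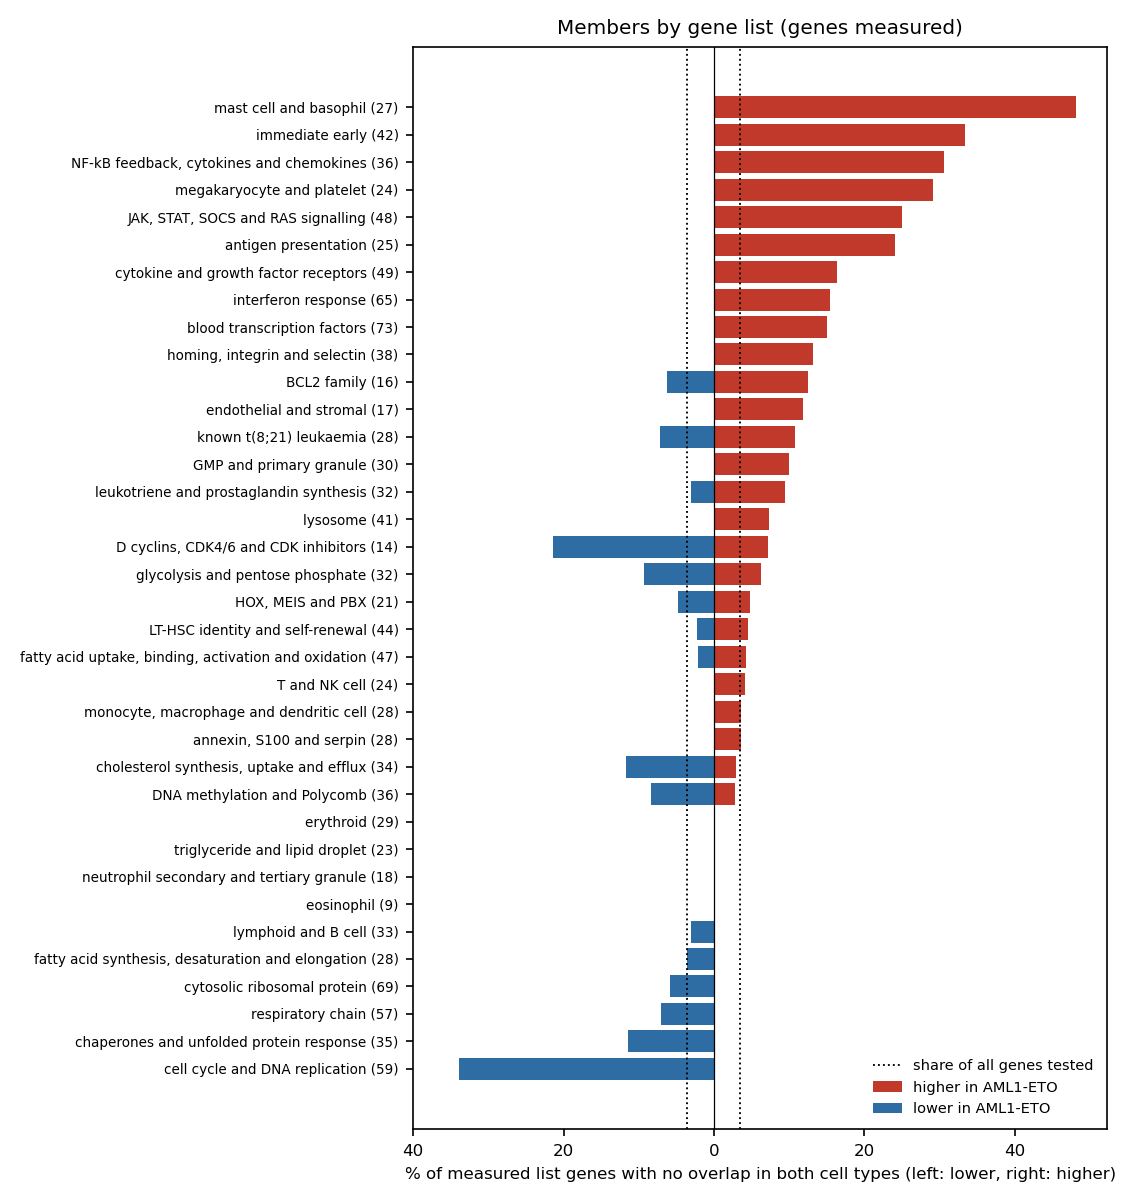
Share of the measured genes of each list that were higher (red, to the right) or lower (blue, to the left) without overlap in both populations, in percent, with the number of genes measured in brackets. Dotted lines mark the shares over all genes tested, 3.5% higher and 3.59% lower; mast cell and basophil genes reach furthest to the right and cell cycle and DNA replication genes furthest left.

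Called in LT-HSC and again in GMP, each by its own adjusted p, were 151 higher and 27 lower members. Over all genes tested, 19.6% were called in LT-HSC and 2.84% in GMP. A stricter reading took the larger of the 2 p-values of each gene, with the same direction required, and adjusted it over all genes. Counts for both populations further below use this stricter test. It left 45 genes (0.279%), 43 higher (0.267%) and 2 lower (0.0124%), all of them members, and 1089 genes had both unadjusted p-values under 0.05. Of the 45, 15 were in a list used here and 30 in none. Named now after their values were seen, Gnb4, a G protein beta chain, was at 36.2 to 74.8 CPM in control LT-HSC and 370 to 593 CPM in AML1-ETO LT-HSC, and at 7.76 to 9.96 CPM in control GMP and 33.5 to 82.4 CPM in AML1-ETO GMP. Csgalnact1, which starts chondroitin sulfate chains such as those on serglycin, was at 40.2 to 81.0 CPM and 218 to 306 CPM in LT-HSC and at 2.52 to 4.25 CPM and 29.7 to 52.7 CPM in GMP. P2rx1, an ATP-gated channel of platelets and mast cells, rose by 2.78 (SE 0.27), Egfl7, an endothelial secreted factor and host gene of a microRNA, by 2.58 (SE 0.31), and Cd274 (PD-L1), which restrains T cells, by 2.26 (SE 0.20).

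The 2 lower genes of this set had no count in any AML1-ETO GMP library. Sdc1 was at 28.8, 127, 24.8 and 34.1 CPM in control LT-HSC and 2.75, 2.23 and 0.673 CPM in AML1-ETO LT-HSC. In GMP it was at 3.21, 2.69, 5.20 and 3.96 CPM in controls and without a count in AML1-ETO, at least 58.7-fold lower. Control LT-HSC replicate 2, the highest in Sdc1, was also the library with the most lymphoid markers. Arhgef17, an activator of small GTPases, was at 14 to 29.9 CPM in control LT-HSC and 0.482 to 1.10 CPM in control GMP, and had no count in any AML1-ETO library, at least 350-fold and at least 13.6-fold lower. The set depends on the libraries: 12 higher genes were left without control GMP replicate 1, 3 or 4, and 73 without AML1-ETO GMP replicate 1.

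Members that moved the same way still differed in size between the populations. The difference was called for 1021 genes in all (6.34%, with 2.91% lower in GMP), among them 121 members. Of 67 such higher members 54 rose more in LT-HSC, and of 54 lower members 51 fell more in LT-HSC. Over all members, called or not, the larger change was in LT-HSC for 389 of 564 higher and 501 of 579 lower genes. Larger in LT-HSC were the mast cell genes Cpa3, Mcpt8, Hdc, Ms4a2, Cyp11a1 and Srgn, several of which control GMP already used, and the replication genes Mcm2, Mcm5, Mcm7, Mcm10, E2f1 and Hells. Larger in GMP were Serpina3g and Csgalnact1, whose log2 fold changes were 1.75 and 2.31 in LT-HSC and 4.04 and 3.78 in GMP.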

How the data were processed

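RNA of sorted LT-HSC and GMP was sequenced in 14 libraries, and the authors deposited 1 table of raw read counts per gene. HISAT2 2.0.5, featureCounts 1.5.0-p3 and mm10 are named in the submitters' processing notes, without roles. Neither the annotation release nor the strand setting is given here, and reads from overlapping or antisense genes cannot be told apart. SMART-Seq v4 and SMARTer Stranded kits are named per the labels' protocols. Gene coordinates and types were taken from GENCODE vM21.

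Counts were fitted with edgeR 4.0.16 (R 4.3.3) by the quasi-likelihood test with TMM factors, after edgeR's filter on low counts, over all 14 libraries in 4 groups with no block. P-values were adjusted over all genes tested (Benjamini-Hochberg, threshold 0.05), and the test was checked on simulated counts. DESeq2 1.42.0 and limma 3.58.1 served as alternatives, with other scalings, no filter, separate fits per population, a replicate block and each library left out in turn. A fold against a group with no count was set against a floor of 3 counts over the group. Library totals above set the depth, and floors cover counting error only.

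Members, gene lists and tests were chosen with earlier results of these data known. Named by rule were Runx1 and Runx1t1 and, of called members, 15 rises and 15 falls of greatest size (ranked by the smaller change of the 2 populations, at least 10 CPM in the higher genotype of both, leaving out unnamed models, immunoglobulin segments and pseudogenes) and the first 3 of each list in the same ranking. Every other gene, among them Cpa3, Mcpt8, Hdc, Ms4a2, Cyp11a1 and the Mcm genes, was named after its values were seen. Some genes that the rule names are not reported here. Promoter letters were counted with Python 3.11.15.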

Additional observations from a re-analysis of the deposited data

Results flagged for a closer look

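In 121 genes described above or of their lists, the 4 control libraries of each population were searched for 1 library standing apart from the other 3 by Dixon's criterion. This happened in 17 of 242 control groups. A library with counts is always marked where the other 3 have none, so the usual rate of about 1 in 20 does not apply there. That was so for Cma1, Ccl2, Tpsb2, Ms4a2, Cd200r3, Mcpt8, Hpgds and Lrrc32. In control LT-HSC, replicate 4 stood apart in Cma1 (3.20 CPM), Ccl2 (3.94 CPM), Tpsb2 (3.94 CPM), Ms4a2 (1.90 CPM) and Cd200r3 (2.58 CPM). Replicate 1 did so in Mcpt8 (0.759 CPM), Hpgds (2.04 CPM), Csgalnact1 (81.0 CPM) and Ptk7 (37.9 CPM). Replicate 2 stood apart in Rps20 (951 CPM) and Sdc1 (127 CPM), and replicate 3 in Itga2 (12.5 CPM). In control GMP these were replicate 1 in Slc2a3 (18.3 CPM), replicate 2 in Cdkn1b (83.7 CPM) and Mcm4 (311 CPM), replicate 3 in Lrrc32 (0.390 CPM) and replicate 4 in Irgm1 (30.7 CPM).

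The change with AML1-ETO differed between the populations in 21 genes by the test of the difference (edgeR's quasi-likelihood test, Benjamini-Hochberg adjusted). As the log2 fold change in GMP minus that in LT-HSC, among rises it was -1.33 for Srgn, -1.29 for Pim1, -3.39 for Lilr4b, -1.03 for Runx1, -1.37 for Pecam1, -5.73 for Cpa3 and -4.27 for Hdc. It was 2.29 for Serpina3g and 1.48 for Csgalnact1, which rose more in GMP. For Gcsam (-6.79), Mcpt8 (-5.51), Ms4a2 (-6.99) and Cyp11a1 (-9.19) control LT-HSC had no or very few counts, so the size depends on the prior count of the fit. Among falls it was 2.01 for Hells, 2.98 for Sqle, 6.22 for Asns, 1.21 for Mcm2, 2.06 for Mcm5, 0.96 for Mcm7, 2.52 for Mcm10 and 1.36 for E2f1, all deeper in LT-HSC.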

How the results depend on the processing

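Of 121 genes described, none reversed under any setting, and 114 kept their call whichever library was left out. The most calls, 7, were lost without AML1-ETO LT-HSC replicate 2. Counts of calls lost out of 22 settings include the separate fits, which did not test the shared effect and so could lose none. Leaving out 1 library at a time gave 1159 to 1842 genes higher and 863 to 1661 lower in the shared effect, 12 to 73 higher and 0 to 6 lower in both populations, and 579 to 904 higher and 592 to 808 lower members. In LT-HSC alone it gave 960 (without AML1-ETO LT-HSC replicate 2) to 1924 higher and 723 to 1715 lower, in GMP alone 183 (without control GMP replicate 4) to 639 (without control LT-HSC replicate 3) higher and 20 to 199 lower, and 471 to 1477 differences. The DESeq2 Wald test called 212 higher and 54 lower in both populations, 918 and 331 in GMP and 1781 differences. With limma-voom 75 were higher and 5 lower in both and 97 lower in GMP. Separate fits of each population gave 19 higher and 0 lower in both, 960 and 610 in LT-HSC and 730 and 467 in GMP. A gap of at least 1.5-fold between the genotypes left 138 higher and 27 lower members. The cause of these shifts was not tested. Low counts limit genes near the floor in a group.

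With the replicate number as a block, 991 genes were higher and 883 lower in the shared effect, 21 and 0 in both populations, 1085 higher in LT-HSC, 192 and 16 in GMP, with 568 differences. As a random effect the block left 1 lower in both and 140 higher and 133 lower in GMP. Deviations of same-numbered libraries from their group means had correlations of 0.091 to 0.161 in AML1-ETO and -0.0388 to 0.0182 in control. Libraries of different number had -0.092 to -0.0213 in AML1-ETO and -0.0828 to 0.0878 in control. In AML1-ETO the same-numbered libraries were thus the more alike, if weakly. The labels do not say that a number marks a mouse, so the main fit took no pairs, and whether the libraries are paired was not tested.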
